A study of Homo sapiens with 8 samples.

Results

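The focal adhesion adaptors and kinases described here are 10 genes taken by symbol from the 2 deposited gene tables: TLN1, TLN2, FERMT2, VCL, ILK, PARVA, PXN, BCAR1, PTK2 and ZYX. All 10 were among the 19472 genes listed in the crowding table and the 19551 genes listed in the ETV4 KD table, and all 10 had enough reads to be tested in both. Poly-A RNA of H9 cells, an established human embryonic stem cell (hESC) line grown on Matrigel in mTeSR1 or TeSR-E8 medium, was sequenced in 8 libraries. In the crowding experiment, 2 libraries labelled small and 2 labelled crowded stand for the low and the high density of the design text, and crowding was made by seeding the cells on small spots of Matrigel. In the second experiment, 2 Ctrl libraries were compared with 2 ETV4 KD libraries, in which the ETS transcription factor ETV4 was knocked down with a lentiviral short hairpin RNA. Which hairpin each ETV4 KD library carried, and how the low-density cells were plated, were not found in the sources used here. The labels do not say that replicates came from separate cultures, so the p-values measure the spread between these libraries, which may be technical.

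Focal adhesions are the sites where integrins connect the extracellular matrix to actin filaments. Talin (TLN1, TLN2) and kindlin-2 (FERMT2) bind the cytoplasmic tails of integrin beta subunits, and vinculin (VCL) joins stretched talin to actin. Integrin-linked kinase (ILK), a pseudokinase, sits in a complex with alpha-parvin (PARVA) and PINCH. Paxillin (PXN) and p130Cas (BCAR1) are docking adaptors, and focal adhesion kinase (FAK, encoded by PTK2) is a tyrosine kinase that signals through them. Zyxin (ZYX) is a LIM-domain protein that gathers on actin fibres under tension. In hESCs, attachment to Matrigel through integrins supports survival and self-renewal.

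The promoter windows of RefSeq's GRCh38.p14 table (250 bases before and 50 after a start) covered 8 of the 10 genes with 13 windows, and each window matched the GRCh37 genome once. The stretches just upstream of the start of PXN, VCL and ZYX, whose RNA fell after crowding and which were the 3 with the highest levels, are shown as they stand in GRCh37, 5′ to 3′ on the strand of the gene. Capitals mark the GC box (GGGCGG or its reverse complement CCGCCC) and, in VCL, the core bound by TEAD factors (GGAATG, searched also as CATTCC). The PXN stretch is at chr12:120703575-120703783 on the minus strand, and its 2 boxes at 182 and 177 bases upstream overlap by 1 base. The VCL stretch is at chr10:75757624-75757871 on the plus strand, inside the span of a longer VCL transcript, and its TEAD core begins 171 bases upstream of the start. The ZYX stretch is at chr7:143078188-143078387 on the plus strand. Bases before the RefSeq start that lie in exons of the GENCODE annotation were left out, 50 for ZYX, 41 for PXN and 2 for VCL.

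PXN: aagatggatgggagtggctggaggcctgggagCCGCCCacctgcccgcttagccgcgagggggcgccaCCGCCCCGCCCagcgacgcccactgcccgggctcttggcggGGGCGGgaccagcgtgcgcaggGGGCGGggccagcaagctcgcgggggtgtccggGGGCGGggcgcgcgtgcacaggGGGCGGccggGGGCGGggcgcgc

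VCL: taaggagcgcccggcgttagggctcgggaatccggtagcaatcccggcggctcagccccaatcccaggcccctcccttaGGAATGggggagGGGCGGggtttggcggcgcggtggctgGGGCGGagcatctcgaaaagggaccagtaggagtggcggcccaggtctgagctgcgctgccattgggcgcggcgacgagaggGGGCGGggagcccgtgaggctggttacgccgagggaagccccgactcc

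ZYX: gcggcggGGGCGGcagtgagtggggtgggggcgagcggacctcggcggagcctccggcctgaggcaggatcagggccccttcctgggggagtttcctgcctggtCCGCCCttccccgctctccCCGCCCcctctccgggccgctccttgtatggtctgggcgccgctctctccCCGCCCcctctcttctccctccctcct

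Of the 13 windows, 5 belong to BCAR1 and 2 to PXN. GC boxes were found in 10 of the 13, against 45% of all 35116 promoter windows of the same length. The TEAD core was in 2 windows (VCL and the second PXN start), against 14% of all windows. An AP-1 site (TGAGTCA or TGACTCA) was in 1 window, of BCAR1, against 4.95%, and a CArG box, the element bound by SRF, was in none of the 13, against 1.29%. The ETS core (CGGAAG or CTTCCG) was in 2 windows, those of ZYX and TLN1, against 19.5% of all windows. These sites are shown with 10 bases on either side and the core in capitals because the second experiment lowered an ETS factor. The ZYX site, at chr7:143078379-143078404 on the plus strand, begins its core 49 bases upstream of the RefSeq start used. That core lies inside the GENCODE span of ZYX, which begins at chr7:143078388. The TLN1 site, at chr9:35732167-35732192 on the minus strand, begins its core 10 bases downstream of the start of TLN1. These are matches of letters only, and whether ETV4 or any other factor binds there was not tested.

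ZYX: ctccctcctcCTTCCGtgtgtccctc

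TLN1: gttcccaggaCGGAAGtggccgagag

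In the GENCODE annotation lifted to GRCh37, TLN1 lies at chr9:35696945-35732192, TLN2 at chr15:62682725-63136830, FERMT2 at chr14:53323986-53419153 and VCL at chr10:75754951-75881121. ILK lies at chr11:6624938-6632105 and PARVA at chr11:12399110-12556903, on the same chromosome. PXN lies at chr12:120648242-120703574, BCAR1 at chr16:75262079-75301951, PTK2 at chr8:141667999-142012315 and ZYX at chr7:143078388-143088204. VCL overlaps the protein-coding gene AP3M1 on the other strand, ILK overlaps TAF10 and ZYX overlaps EPHA1. The sources used here do not say if strand was used in counting, so reads of such partners may be split or shared. Vinculin and its longer muscle form metavinculin come from the same gene and were not separated.

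Totals of reads on genes were close in all 8 libraries, from 50359703 to 62410168 per library, and each of the 10 genes had between 829 reads (PARVA, crowded replicate 1) and 63583 reads (VCL, ETV4 KD replicate 1) in every library. Counting error was therefore smaller than the differences between replicates, whose typical coefficient of variation was 6.83% in the crowding experiment and 9.93% in the ETV4 KD experiment. ETV4 itself stood at 90.8 and 95.1 FPKM in the Ctrl libraries and at 45.6 and 40.9 FPKM in the ETV4 KD libraries, a change of -55.1% (log2 fold change -1.15, SE 0.07, adjusted p = 0.000160). All 12 pluripotency markers of the list were detected, with summed levels of 3793 to 4029 FPKM in the crowding experiment and 3219 to 3515 FPKM in the ETV4 KD experiment, and POU5F1 alone was at 1045 FPKM or more in the first and 1016 FPKM or more in the second.

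RNA of 9 of the 10 genes was lower after crowding, and PTK2 was the exception. In edgeR's fit of the read counts, PXN, ZYX, PARVA, BCAR1 and VCL changed by -48.1% to -44.5%, and FERMT2, ILK, TLN1 and TLN2 by -29.1% to -22.1%. Levels are FPKM, which are scaled by transcript length and library size. Percent changes, here and elsewhere, are those of edgeR's log2 fold changes of the counts and can differ from ratios of FPKM. For TLN1 the log2 fold change was -0.39 on log2(FPKM + 0.1), against -0.45 from the counts. A gene passed at an adjusted p below 0.05 in edgeR's quasi-likelihood test on the read counts, with Benjamini-Hochberg adjustment over all 17672 genes tested. Of all genes tested, 20.3% passed as lower and 19.4% as higher, against 9 and 0 of these 10 genes. At an unadjusted p below 0.05 the count of higher genes was also 0 with edgeR, the DESeq2 Wald test and limma. Among genes with a mean level of at least 1 FPKM, as all 10 have, 25.7% passed as lower. With a log2 fold change beyond 0.5 asked for as well, which defines the differentially expressed genes (DEGs), 5 of the 10 passed as lower, against 5.47% of all genes. The libraries of the 2 densities did not overlap for the 9 genes, and 35.3% of all genes had crowded libraries wholly below the low-density ones. The median log2 fold change was -0.67 over the 10 genes and 0.0032 over all genes tested. In bulk RNA, fewer cells that express a gene and less RNA per cell cannot be told apart.

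**Figure D1:**
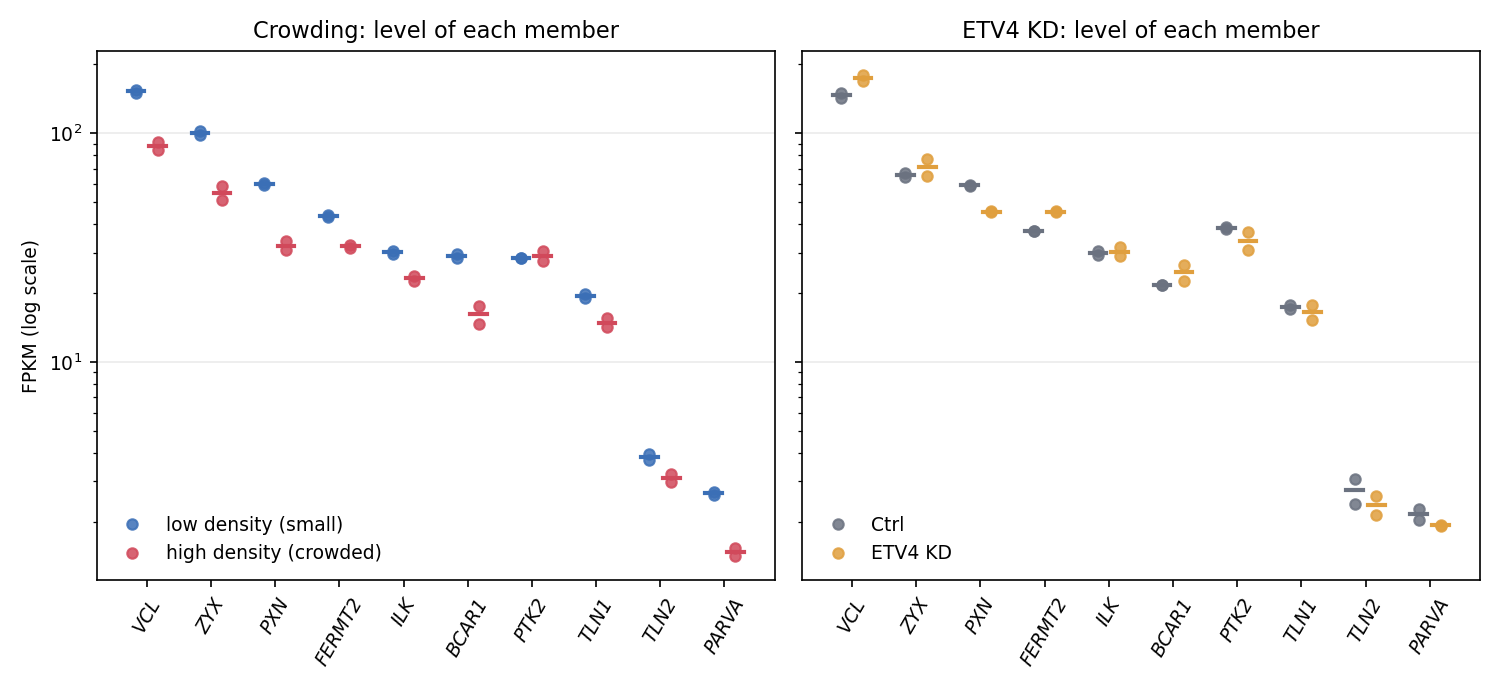
Level of each of the 10 genes in FPKM, on a log axis, in the 2 libraries of each group (points) with the group mean (bar): low density (small) and high density (crowded) on the left, Ctrl and ETV4 KD on the right. Crowded libraries sit below the low-density libraries for every gene except PTK2, whereas on the right the groups lie close together, with VCL and FERMT2 higher and PXN lower in the ETV4 KD libraries.

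Among the proteins that tie integrin tails to actin, all 4 genes fell. TLN1, the widely expressed talin, was at 19.7 and 19.1 FPKM in the low-density libraries and 15.5 and 14.2 FPKM in the crowded libraries, a change of -26.6% (log2 fold change -0.45, SE 0.06, adjusted p = 7.58e-06). TLN2, the second talin gene, stood at 3.97 and 3.71 FPKM at low density and 2.99 and 3.23 FPKM after crowding, and fell by 22.1% (log2 fold change -0.36, SE 0.07, adjusted p = 0.000288). The 95% intervals of the talins overlapped, and the ratio of TLN1 to TLN2 was 4.96 and 5.15 at low density and 5.18 and 4.38 after crowding, so that the ratios overlapped. FERMT2, the kindlin that activates integrins together with talin, went from 42.8 and 44.0 FPKM to 32.4 and 31.6 FPKM, a change of -29.1% (log2 fold change -0.50, SE 0.06, adjusted p = 7.84e-07). Its unrounded log2 fold change of -0.497 lay just short of the limit for a DEG.

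VCL had the highest level of the 10 genes in every library, and its log2 fold change was larger in size than those of the talins and kindlin-2. It was at 154 and 151 FPKM in the low-density libraries and at 91.8 and 84.6 FPKM in the crowded libraries, a change of -44.5% (log2 fold change -0.85, SE 0.05, adjusted p = 4.97e-11). Its 95% interval on the log2 scale, -0.95 to -0.75, did not meet that of TLN1, -0.56 to -0.33. The ratio of VCL to TLN1, a measure of vinculin RNA per talin RNA, was 7.81 and 7.88 at low density and 5.93 and 5.97 after crowding, without overlap. No test between genes was made, and how often such ratios lie apart over all pairs of genes was not counted.

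In the ILK-parvin complex both genes fell, with a log2 fold change of larger size for PARVA. ILK was at 29.7 and 30.5 FPKM at low density and at 23.8 and 22.7 FPKM after crowding, a change of -27.0% (log2 fold change -0.45, SE 0.06, adjusted p = 1.01e-05). PARVA, the actin-binding arm of the complex, was at 2.70 and 2.63 FPKM at low density and at 1.53 and 1.41 FPKM after crowding, and fell by 46.9% (log2 fold change -0.91, SE 0.08, adjusted p = 4.34e-08). PARVA had the lowest level of the 10 genes in every library, and the ratio of ILK to PARVA went from 11.0 and 11.6 to 15.5 and 16.1 without overlap.

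The adaptors fell and the kinase did not pass. PXN, which docks FAK, vinculin and parvins, was at 59.1 and 60.3 FPKM at low density and at 33.7 and 30.7 FPKM after crowding, a change of -48.1% (log2 fold change -0.95, SE 0.06, adjusted p = 1.53e-10). BCAR1, the Cas-family scaffold that recruits Crk, went from 28.3 and 29.5 FPKM to 17.6 and 14.7 FPKM, a change of -46.3% (log2 fold change -0.90, SE 0.07, adjusted p = 7.12e-08). The 2 adaptors had like proportions at both densities, and the ratio of PXN to BCAR1 was 2.09 and 2.05 at low density and 1.91 and 2.09 after crowding. PTK2, which encodes FAK, was at 28.5 FPKM in both low-density libraries and at 27.6 and 30.7 FPKM in the crowded libraries, on either side of them. Its log2 fold change was -0.02 (SE 0.06, adjusted p = 0.782), with a 95% interval of -0.14 to 0.09, and its sign turned when crowded replicate 1 was left out (0.04) and on log2 FPKM (0.03). The interval lies above those of the other 9 genes, so a fall of PTK2 as large as that of TLN2, the smallest among them, is outside it. The ratio of PXN to PTK2 was 2.07 and 2.12 at low density and 1.22 and 1.00 after crowding.

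ZYX, the LIM protein of actin fibres under tension, was at 98.6 and 102 FPKM at low density and at 58.6 and 51.0 FPKM after crowding. It fell by 47.6% (log2 fold change -0.93, SE 0.07, adjusted p = 2.62e-09), close to PXN, PARVA and BCAR1. The 95% intervals of the 5 DEGs all ended at -0.75 or lower, to 2 decimals, and those of the other 4 genes that fell all began at or above -0.61 on the log2 scale. Leaving out crowded replicate 1, whose level was the higher of the crowded pair for 8 of these 9 genes, brought FERMT2, TLN1 and ILK past the limit of 0.5 as well, so that 8 genes were DEGs. All 9 calls at an adjusted p below 0.05 stood under each of the 12 alternative settings tried, and the highest adjusted p among them was 0.0413, for TLN2.

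**Figure D2:**
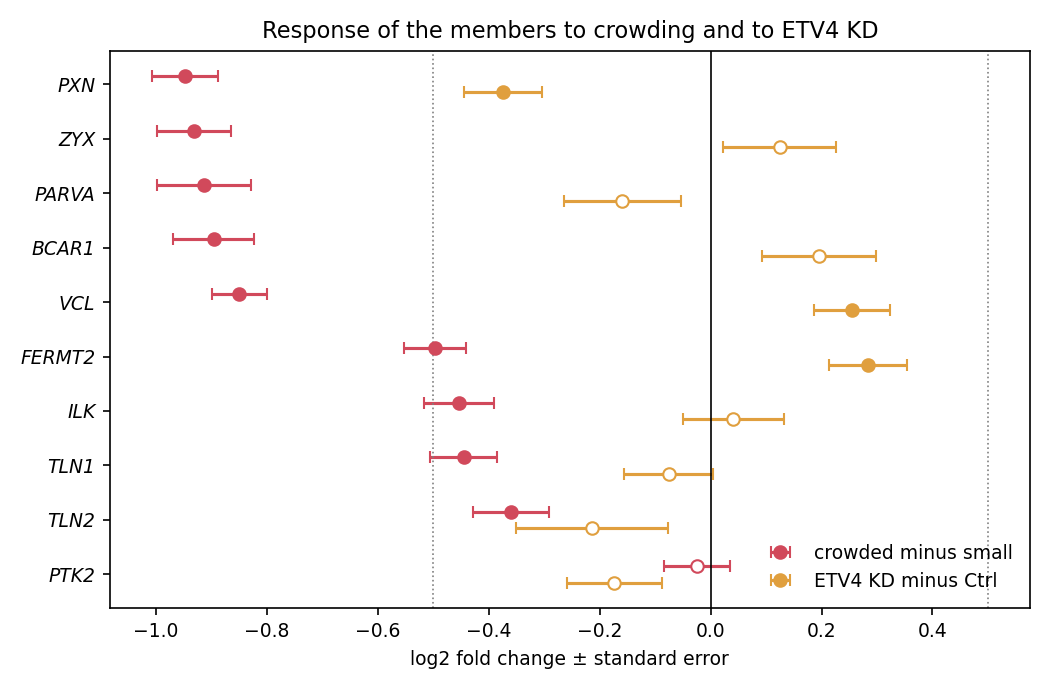
Log2 fold change of each gene on crowding (red) and on ETV4 KD (orange), with bars of 1 standard error from edgeR and dotted lines at 0.5 on either side of 0. Filled points passed at an adjusted p below 0.05. After crowding 9 genes lie between -0.95 and -0.36 and PTK2 lies at -0.02, whereas on ETV4 KD the 10 genes lie between -0.37 and 0.28.

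The other genes of the adhesion passed as lower at 47.6%, between the 10 genes and all genes tested. A list of 85 further adhesome genes was read from the same fit, of which 82 were tested after crowding: 39 fell, 9 rose and 34 did not pass, and their median log2 fold change was -0.17. Of these, 17 were DEGs that fell and 4 were DEGs that rose, against 5.47% and 10.7% of all genes. By role, 6 of 11 partners of talin, kindlin and ILK fell and 0 rose (also 0 at an unadjusted p below 0.05 in edgeR), 16 of 28 actin-linking scaffolds fell and 5 rose, 7 of 14 paralogs of the 10 genes fell and 2 rose, and 10 of 29 kinases, phosphatases and Cas-Crk signalling genes fell and 2 rose. Without small replicate 2 the count that rose was 4 in place of 9, and DEGs that rose were 2 in place of 4.

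The 2 largest falls of that list among genes with a mean of at least 1 FPKM were of actin-binding proteins. The level of FLNC, a filamin that crosslinks actin, averaged 14.5 ± 0.28 FPKM (SD, n = 2) in the low-density group and 3.69 ± 0.44 FPKM after crowding (log2 fold change -2.03, adjusted p = 5.23e-13). CALD1, the actin- and tropomyosin-binding protein caldesmon, went from 92.9 ± 0.37 to 27.0 ± 2.31 FPKM (log2 fold change -1.85, adjusted p = 3.21e-14). CSRP1, NEXN and TNS2, further genes of actin-associated proteins, fell by 1.05, 1.00 and 0.88 on the log2 scale. Among paralogs, NEDD9, a Cas-family relative of BCAR1, fell by 1.57 and AJUBA, a LIM protein of the zyxin family, fell by 0.79. LIMS2, a PINCH gene, fell by 1.35 from a mean of 1.97 FPKM, and LIMS1, a further PINCH gene, fell by 0.37. The rises with a mean of at least 1 FPKM were ARHGEF6 (0.66), TNS3 (0.57) and PDLIM1 (0.54), and PDLIM1, an alpha-actinin-binding LIM protein, reached 147 ± 5.79 FPKM from 97.0 ± 0.28 FPKM.

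Close relatives of the 10 genes did not share a single direction as a set, with 7 of 14 lower and 2 higher, though those of ZYX all fell. In the zyxin family LPP (-0.60), WTIP (-0.59), TRIP6 (-0.25) and LIMD1 (-0.23) passed as lower, as AJUBA did. FERMT1, the epithelial kindlin, was at 2.78 FPKM at low density and 2.79 FPKM after crowding (log2 fold change -0.05, adjusted p = 0.691). FERMT3, the kindlin of blood cells, rose by 0.70 on the log2 scale (adjusted p = 0.0277) at means of 0.396 and 0.675 FPKM. PTK2B, the FAK relative Pyk2, was at 0.540 and 0.602 FPKM (log2 fold change 0.15, adjusted p = 0.594). TGFB1I1, the paxillin relative Hic-5, fell by 0.43 (adjusted p = 0.0464), and PARVB, beta-parvin, had a log2 fold change of -0.17 (adjusted p = 0.245). EFS, a Cas-family relative of BCAR1 like NEDD9, rose by 0.24 (adjusted p = 0.0178), from a mean of 9.27 to 11.4 FPKM. SRC, the kinase that acts with FAK, stood at 12.7 and 13.3 FPKM (adjusted p = 0.958). These genes were chosen for their family or role after their values were seen.

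**Figure D3:**
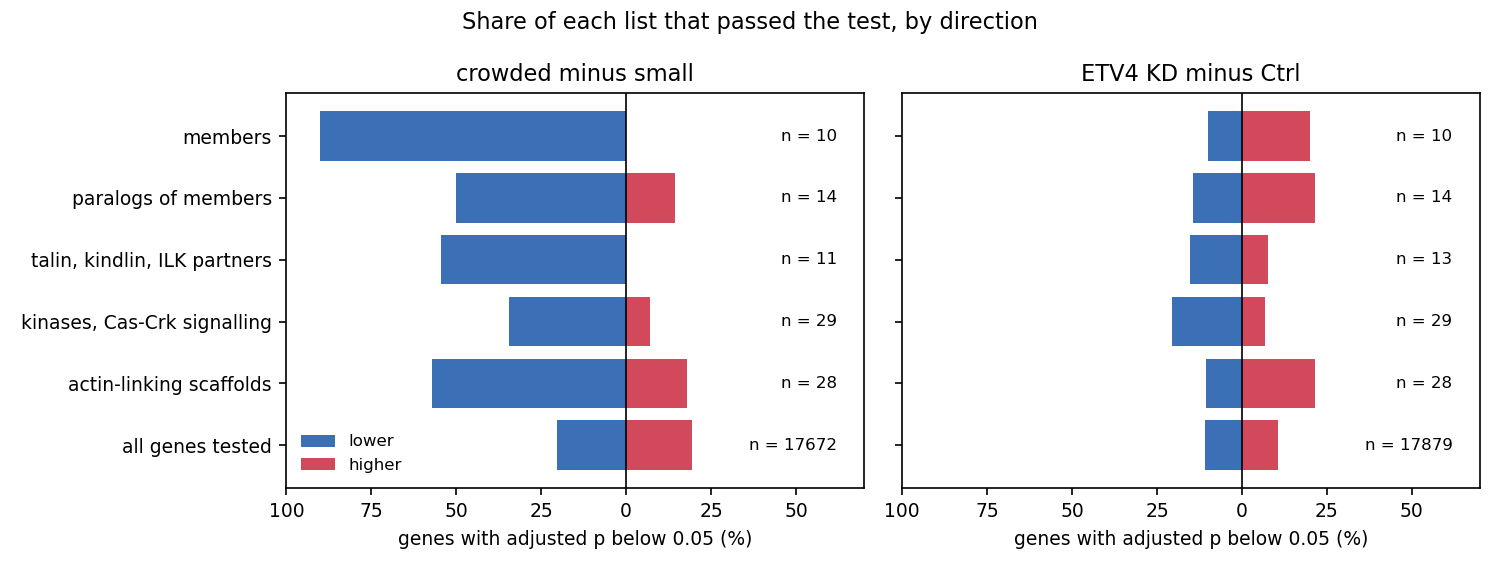
Percent of each gene list with an adjusted p below 0.05 and lower (blue, to the left) or higher (red, to the right), for crowding and for ETV4 KD, with the number of genes tested; the bottom bar is all genes tested. After crowding 90% of the 10 genes were lower against 20.3% of all genes, and after ETV4 KD 10% were lower and 20% higher against 10.9% and 10.6%.

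Some genes on marker lists of other cell types passed as lower or higher after crowding, as did 20.3% and 19.4% of all genes tested. A listed gene need not come from that cell type, and the part of such cells in the falls was not tested. Of 12 fibroblast markers, 7 were listed, with sums of 118 and 121 FPKM at low density and 85.2 and 86.1 FPKM after crowding, and 4 of the 7 fell. The 4 were COL1A1 (log2 fold change -0.44), THY1 (-0.63), PDGFRB (-1.58, adjusted p = 1.11e-09) and POSTN (-1.71, adjusted p = 0.000611), and most of the sum came from THY1 and COL1A1. THY1 alone was at 52.9 to 80.5 FPKM, while PDGFRB and POSTN were at 2.73 FPKM or less. Which cells gave the THY1 RNA was not tested. DCN and LUM were not listed. Of 10 neuroectoderm markers 6 were listed and 5 tested, of which 2 fell and 2 rose. Of 9 mesendoderm markers (TBXT searched also by its older symbol T) 6 were listed and 5 tested, of which 2 fell and 1 rose. Of 10 trophoblast and amnion markers 4 were listed and tested, and 2 rose. Sums over neuroectoderm markers were 1.35 to 1.66 FPKM at low density and 0.965 to 1.29 FPKM after crowding, and those over mesendoderm markers were 1.64 to 1.99 and 2.45 to 2.64 FPKM. Sums over trophoblast and amnion markers were 4.73 and 5.23 FPKM at low density and 7.46 and 7.51 FPKM after crowding. Of the 12 pluripotency markers, 4 fell, 4 rose and 4 did not pass, with SOX2 higher by 0.41 and NANOG lower on the log2 scale (-0.46).

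After knockdown of ETV4, 3 of the 10 genes passed, in both directions, against 21.5% of all genes in either direction. PXN fell, FERMT2 and VCL rose, and the other 7 did not pass, so that 1 of 10 passed as lower and 2 of 10 as higher, against 10.9% and 10.6% of the 17879 genes tested. None of the 10 was a DEG under edgeR, DESeq2 or limma, against 13% of all genes, and 3 of them had an unadjusted p below 0.05. The ETV4 KD libraries lay wholly below the Ctrl libraries for 3 genes (PXN, PARVA and PTK2) and wholly above them for 3 (FERMT2, VCL and BCAR1), against 32.2% and 32.6% of all genes. The median log2 fold change was -0.02 over the 10 genes. These shares of the 10 genes lay near the background of all genes. Without Ctrl replicate 1, 0 of the 10 passed (edgeR's quasi-likelihood test, with 1782 of all genes called against 3847 with it), while 1 was lower and 2 were higher at an unadjusted p below 0.05. Without Ctrl replicate 2 the count was 1 (2463 of all genes), and without ETV4 KD replicate 1 it was 6 (6203 of all genes).

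PXN was at 59.5 and 58.7 FPKM in the Ctrl libraries and at 45.5 and 45.3 FPKM in the ETV4 KD libraries, and fell by 22.9% (log2 fold change -0.37, SE 0.07, adjusted p = 0.00915). It was the only gene of the 10 that passed as lower in both experiments. Without Ctrl replicate 1 its log2 fold change was -0.35 and its adjusted p was 0.0970. FERMT2 went the other way, from 37.4 and 37.3 FPKM to 45.7 and 45.0 FPKM (log2 fold change 0.28, SE 0.07, adjusted p = 0.0242). VCL was at 149 and 143 FPKM in the Ctrl libraries and at 180.0 and 169 FPKM in the ETV4 KD libraries (log2 fold change 0.26, SE 0.07, adjusted p = 0.0324). Neither rise passed without Ctrl replicate 1 (adjusted p of 0.202 for FERMT2 and 0.167 for VCL) or without Ctrl replicate 2 (0.212 and 0.332), while the log2 fold changes stayed between 0.22 and 0.30.

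The other 7 genes did not pass. TLN1 was at 17.7 and 17.1 FPKM in Ctrl and 17.7 and 15.3 FPKM in ETV4 KD (log2 fold change -0.08, 95% interval -0.23 to 0.08), so the groups overlapped. TLN2 was at 3.08 and 2.40 FPKM in Ctrl and 2.59 and 2.14 FPKM in ETV4 KD, where the Ctrl libraries themselves lay far apart (log2 fold change -0.21, interval -0.48 to 0.05). ILK, at 29.2 and 30.5 FPKM and then 29.0 and 31.6 FPKM, had a log2 fold change of 0.04 (interval -0.14 to 0.22), which turned to -0.05 without ETV4 KD replicate 2. The ILK values of the ETV4 KD group lay on either side of those of Ctrl. PARVA was at 2.04 and 2.27 FPKM in Ctrl and 1.94 and 1.91 FPKM in ETV4 KD, lower in both but within the error (log2 fold change -0.16, interval -0.37 to 0.05).

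BCAR1 was at 21.6 FPKM in both Ctrl libraries and at 22.6 and 26.6 FPKM in the ETV4 KD libraries (log2 fold change 0.20, interval -0.01 to 0.40, adjusted p = 0.205). ZYX was at 64.2 and 66.8 FPKM in Ctrl and at 65.0 and 77.1 FPKM in ETV4 KD (log2 fold change 0.12, interval -0.08 to 0.32, adjusted p = 0.414). PTK2 was at 38.8 and 38.0 FPKM in Ctrl and at 37.1 and 30.7 FPKM in ETV4 KD (log2 fold change -0.17, interval -0.34 to -0.01, adjusted p = 0.182). The interval of PTK2 leaves out 0 only because it is narrower than edgeR's test implies, whose unadjusted p was 0.0762. For these 3 genes ETV4 KD replicate 2 stood farther from Ctrl than replicate 1 did. Without ETV4 KD replicate 1, BCAR1 (0.34, adjusted p = 0.00609), ZYX (0.27, adjusted p = 0.0152) and PTK2 (-0.28, adjusted p = 0.0139) passed, and without replicate 2 none of them passed, with BCAR1 at 0.04 (adjusted p = 0.758), PTK2 at -0.07 (adjusted p = 0.543) and ZYX turned to -0.03 (adjusted p = 0.787).

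Some ratios between partners stood apart in the ETV4 KD experiment and others overlapped. The ratio of VCL to TLN1 was 8.42 and 8.38 in Ctrl and 10.2 and 11.0 in ETV4 KD, higher without overlap, and after crowding it was lower. That of PXN to BCAR1 was 2.75 and 2.71 in Ctrl and 2.01 and 1.70 in ETV4 KD, whereas its values at the 2 densities overlapped. That of PXN to PTK2 was 1.53 and 1.55 in Ctrl and 1.23 and 1.47 in ETV4 KD. The ratio of TLN1 to TLN2 overlapped, at 5.75 and 7.13 in Ctrl and 6.84 and 7.16 in ETV4 KD, as did that of ZYX to PTK2, at 1.65 and 1.76 in Ctrl and 1.75 and 2.51 in ETV4 KD. That of ILK to PARVA was 14.3 and 13.4 in Ctrl and 14.9 and 16.6 in ETV4 KD, without overlap. Neither ILK nor PARVA passed. Levels of single genes often lay apart in this experiment, with 32.2% of all genes wholly lower and 32.6% wholly higher in ETV4 KD. No such share was counted for ratios, and they were not tested.

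Of the 84 other adhesome genes tested after ETV4 KD, 13 fell, 12 rose and 59 did not pass, with a median log2 fold change of 0.01. That is 15.5% lower and 14.3% higher, against 10.9% and 10.6% of all genes, of which 21.5% passed in either direction. DEGs were 4 that fell and 7 that rose, against 7.1% and 5.88% of all genes. PDLIM5, an alpha-actinin-binding PDZ-LIM protein, went from 10.8 ± 0.66 FPKM (SD, n = 2) in Ctrl to 4.68 ± 0.98 FPKM in ETV4 KD (log2 fold change -1.20, adjusted p = 0.000956). PARVB, the relative of PARVA, fell by 0.77 from 9.29 to 5.43 FPKM (adjusted p = 0.00398), and ARHGEF6 and PEAK1 fell by 0.86 and 0.79 on the log2 scale. FLNC, whose Ctrl mean was 6.21 FPKM, rose by 1.43 to 16.7 ± 4.25 FPKM (adjusted p = 0.00251, but 0.257 with the replicate number as a block), and AJUBA rose by 1.09 to 16.8 ± 3.33 FPKM (adjusted p = 0.00247). PALLD (0.72), RAP1A (0.65), PDLIM7 (0.59) and VASP (0.55) rose as well, as did LPXN (0.67, adjusted p = 0.0486), a paxillin relative whose call was lost when any 1 of the 4 libraries was left out. FLNC and AJUBA thus had opposite signs after crowding and after ETV4 KD, where the rise of FLNC did not pass with that block. Without the block, the differences between the 2 changes were -3.46 and -1.89 on the log2 scale (adjusted p = 9.00e-05 and 7.65e-06). Other genes had opposite signs too, among them ARHGEF6 (0.66 after crowding and -0.86 after ETV4 KD) and PDLIM7 (-0.71 and 0.59), DEGs in both. Without Ctrl replicate 1 the counts were 5 that fell and 7 that rose, without Ctrl replicate 2 the count that rose was 7, and without ETV4 KD replicate 1 the count that fell was 21. DEGs that fell were 7 without Ctrl replicate 2 and 10 without ETV4 KD replicate 1, and DEGs that rose were 4 without ETV4 KD replicate 2.

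Genes on the fibroblast list summed to 157 and 159 FPKM in Ctrl and to 129 and 119 FPKM in ETV4 KD, with 9 of 12 listed, 3 lower, 1 higher and 4 not passed of the 8 tested. THY1, at 64.8 to 119 FPKM, fell by 0.81 on the log2 scale, and COL1A1 rose by 1.00. In the same libraries 3 of 12 pluripotency markers fell, 3 rose and 6 did not pass, with DNMT3B and TDGF1 both at -0.82. Of all genes tested, 10.9% passed as lower and 10.6% as higher. Sums over neuroectoderm markers were 0.372 to 0.555 FPKM and over mesendoderm markers 1.60 to 2.21 FPKM, while trophoblast and amnion markers summed to 8.36 and 8.42 FPKM in Ctrl and 6.77 and 6.10 FPKM in ETV4 KD. The part of these in the values of PXN, FERMT2 and VCL was not tested.

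**Figure D4:**
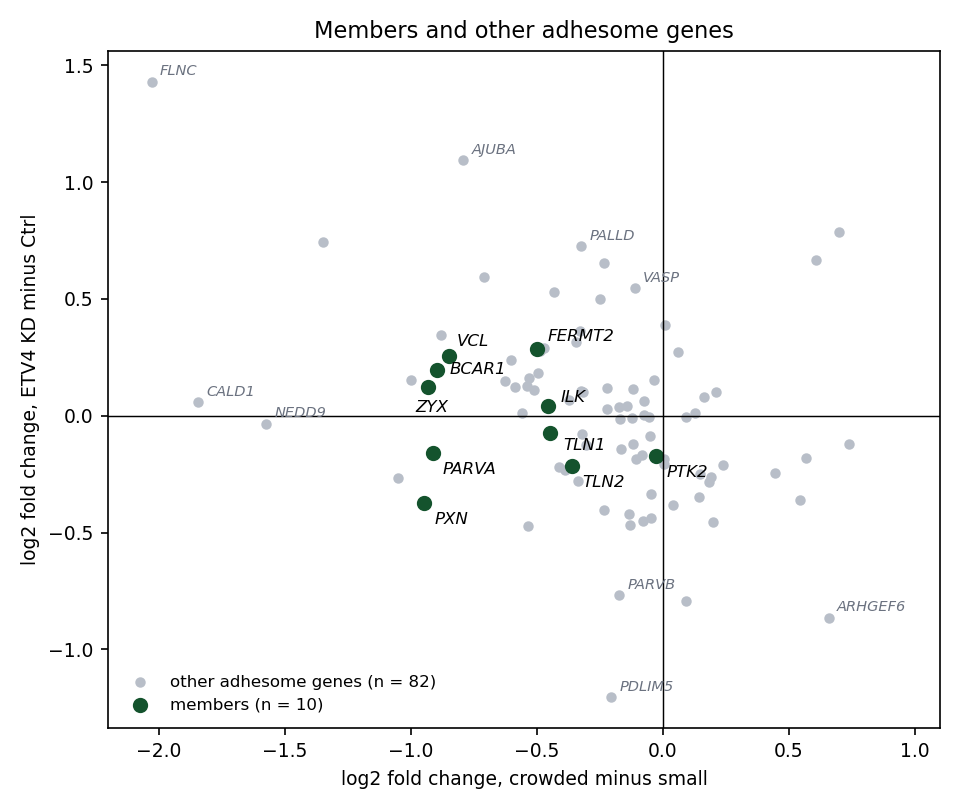
Log2 fold change after crowding (horizontal) against that after ETV4 KD (vertical) for the 10 genes (dark points) and 82 other adhesome genes (grey points), from edgeR. The 10 genes lie at or left of 0 on the horizontal axis and between -0.37 and 0.28 on the vertical axis, and FLNC lies at -2.03 and 1.43.

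The change after crowding was tested against the change after ETV4 KD in a single fit of all 8 libraries, in which each change was taken within its own experiment. The 2 changes differed for 8 of the 10 genes, all with the lower value after crowding, against 38.5% of the 17790 genes tested in either direction and 19.7% in that direction. The differences were largest for VCL (-1.11, SE 0.08, adjusted p = 3.04e-06), BCAR1 (-1.10, SE 0.14, adjusted p = 0.000141) and ZYX (-1.06, SE 0.13, adjusted p = 0.000114). FERMT2, which fell in the first experiment and rose in the second, differed by -0.79 (SE 0.08, adjusted p = 3.68e-05), and PARVA differed by -0.76 (SE 0.13, adjusted p = 0.000770). PXN, which fell in both, still differed by -0.58 (SE 0.09, adjusted p = 0.000394), with the larger fall after crowding. ILK differed by -0.50 (SE 0.11, adjusted p = 0.00358). TLN1 differed by -0.38 (SE 0.10, adjusted p = 0.0116), and this call was lost without crowded replicate 2 (adjusted p = 0.0653), small replicate 1 (0.0615) or Ctrl replicate 2 (0.0507).

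The 2 genes that did not pass were TLN2, at -0.15 with a 95% interval of -0.47 to 0.16, and PTK2, at 0.14 with an interval of -0.07 to 0.35. PTK2 passed without ETV4 KD replicate 1 (0.25, adjusted p = 0.0384), and TLN2 turned to 0.02 without Ctrl replicate 2. ETV4 itself was lower in both experiments, at -0.49 (SE 0.06, adjusted p = 9.42e-07) after crowding and -1.15 after knockdown. The 2 experiments also differ in viral transduction and in their tables of values, which cannot be told apart from the conditions.

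The order of levels was nearly fixed across the groups. VCL had the highest level and ZYX the next in all 8 libraries, and TLN1, TLN2 and PARVA were the last 3 in the order of group means in every group. At low density the means ran from VCL at 152 ± 2.29 FPKM (SD, n = 2) through ZYX at 100.5 ± 2.60 and PXN at 59.7 ± 0.85 to FERMT2 at 43.4 ± 0.80, then ILK, BCAR1, PTK2, TLN1, TLN2 and PARVA, and BCAR1 and PTK2 overlapped. After crowding PTK2 stood above ILK and BCAR1, and PXN overlapped FERMT2, as BCAR1 did TLN1. In Ctrl no neighbours overlapped, and PTK2 lay between PXN and FERMT2. In ETV4 KD PXN overlapped FERMT2, at 45.4 ± 0.19 and 45.3 ± 0.50 FPKM, and PTK2 overlapped ILK. Since the tables were normalized separately, levels were compared within a table only.

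For each gene that passed in either experiment, the adhesome gene most like it was sought among 82 candidates by Pearson's r of log2 CPM (counts scaled to the library total) over the 8 libraries, after the mean of each experiment was taken off. The 8 points come from 4 groups in 2 experiments, share depth and normalization within each, and give no independent evidence, so r is a description. The closest were NEXN for ZYX (r = 0.992) and for BCAR1 (0.983), FLNA for FERMT2 (0.991), WTIP for ILK (0.990) and RSU1, a PINCH-binding protein, for VCL (0.988). ACTN4, an alpha-actinin, was closest to PXN (0.981), DOCK5 to TLN2 (0.980), CALD1 to PARVA (0.975) and CRKL to TLN1 (0.928). WTIP for BCAR1 (0.983) and LIMS1 for TLN1 (0.927) came nearly as close. DOCK5 and CRKL themselves passed in neither experiment. FLNA, which crosslinks actin, had a log2 fold change of -0.47 after crowding and 0.29 after ETV4 KD (adjusted p = 5.89e-08 and 0.0213). Its directions were those of FERMT2, which follows from its choice by r over the same libraries.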

How the data were processed

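The authors sequenced poly-A libraries of H9 hESCs, made with a stranded kit, as paired reads of 100 bases. The reads were trimmed with Trimmomatic, mapped to GRCh37 with HISAT2 2.1.0 and assembled with StringTie 2.1.3b, per the labels and the methods. The authors deposited 1 table per experiment with raw read counts per gene and FPKM values, which they normalized by transcript length and mapped reads. In both tables every gene listed has a read or more in all 4 libraries. The deposited fold changes and p-values of the authors, and 16 further per-sample columns, were not used.

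The counts were tested within each table, with 2 libraries per group, by edgeR 4.0.16 in R 4.3.3 (quasi-likelihood test after filterByExpr and TMM, robust dispersions), adjusted by Benjamini-Hochberg over 17672 and 17879 genes. The difference between the 2 changes was fitted on all 8 libraries with 4 groups. A gene passed at an adjusted p below 0.05, and a DEG also changed by more than 0.5 on the log2 scale. The SE of a log2 fold change is its size over the root of its F statistic, and 95% intervals are 1.96 SE to each side. The factor 1.96 is that of a normal spread, so with 2 libraries per group these intervals are narrower than the test's own. With 2 libraries against 2, a permutation test of a single gene cannot reach 0.05, and the p-values rest on a spread estimated across genes. Depth was 50359703 to 62410168 reads per library, so the spread between replicates and not counting error sets the precision. Counts were simulated in which 200 genes differed by 1 on the log2 scale. The test called 97.5% of them for crowding, 96.5% for ETV4 KD and 88% for the difference. Recovery of smaller changes, such as the log2 fold changes of -0.37 to 0.28 of the 10 genes after ETV4 KD, was not tested.

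The genes and lists were chosen with earlier results of these data known. Named by rule were the 10 genes, ETV4, up to 8 DEGs in each direction per experiment among other adhesome genes with a mean of at least 1 FPKM, the adhesome gene most correlated with each gene that passed, and the marker lists. Other genes were named after their values were seen: LIMS1, FERMT1, FERMT3, PTK2B, TGFB1I1, EFS, SRC, LPP, WTIP, TRIP6, LIMD1, and PARVB and PDLIM7 after crowding. Alternatives were size factors of DESeq2 1.42.0 in edgeR, its Wald test, all genes without a filter, only genes with 10 counts or more in all libraries, a block for the replicate number, limma 3.58.1 on log2(FPKM + 0.5) (pseudocounts of 0.1 and 1 also) and each library left out. Over all genes, deviations of same-numbered libraries correlated at -0.04 and 0.09, which does not exclude that the replicate numbers pair the samples.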

Additional observations from a re-analysis of the deposited data

How the results depend on the processing

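Of 370 values of the 10 genes under alternative settings, 348 kept their direction and their side of the threshold, 8 lost the call, 7 gained it and 7 changed sign. After crowding 9 of the 10 genes passed under every setting, and the number of DEGs among them was 5 to 8 with 1 library left out. Other adhesome genes that passed as higher after crowding were 4 to 10 with 1 library left out. After ETV4 KD, 0 to 6 of the 10 genes passed with 1 library left out, against 3 with all, and in other adhesome genes 12 to 34 passed in all, 5 to 21 as lower and 7 to 13 as higher. With the replicate number as a block, 6 of the 10 genes passed after ETV4 KD (TLN2, BCAR1 and PTK2 joining, with adjusted p of 0.0429, 0.0423 and 0.0108), as did 39 other adhesome genes, 23 of them lower, and FLNC lost its call (adjusted p = 0.257). Whether the numbers pair the samples is not known, and 6894 of all genes were called with the block against 3847 without. LPXN lost its call with the DESeq2 Wald test (adjusted p = 0.0781) and without a filter (0.0555). The log2 fold change of PTK2 after crowding turned to 0.0288, 0.0292 and 0.0284 with limma (pseudocounts of 0.5, 0.1 and 1) and ran from -0.0944 to 0.0444 with 1 library left out, the higher without crowded replicate 1. With 1 library left out, that of ILK after ETV4 KD ran from -0.0547 to 0.133 and that of ZYX from -0.0347 to 0.270, both lowest without ETV4 KD replicate 2. The difference for TLN2 ran from -0.357 to 0.0237, the higher without Ctrl replicate 2. The DEG counts of other adhesome genes after crowding were 8 to 11 lower with limma, against 17. For the other changes the cause was not tested. Where a library was left out, the lone library of its group was assumed to vary like the others.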
